A study of Mus musculus with 12 samples.

Results

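Between the start and the 3' end of liver genes lie 1690 m6A-IP peaks, the peaks in the middle of the gene span. A peak is a stretch of RNA enriched by an antibody against N6-methyladenosine (m6A). The table holds 7460 distinct peaks, and 6474 of them are annotated to a single gene. For these the midpoint of the peak was placed along the gene span, from 0 at the 5' end to 1 at the 3' end. Peaks from 0.2 to under 0.8 are called middle peaks here, and they made up 26.1% of the single-gene peaks. No measured level entered this choice.

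The study compared livers with cholestatic fibrosis after ligation of the bile duct (BDL), which stops the flow of bile, with control livers. All were from male C57BL/6 mice aged 12 weeks. The labels call the treatment of the BDL group hepatic fibrosis, and give no time after surgery and no sham operation for the control group. The 6 IP libraries analysed here are 3 of BDL and 3 of control livers, and the 6 input libraries were not analysed here. A difference in IP reads from more transcript therefore cannot be told apart from one from more methylation. As these are whole livers, fewer cells of a type and less RNA per cell cannot be told apart either. The labels number the samples without saying that each is a separate mouse, so the p-values rest on a spread that may be technical.

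As background, m6A is written on mRNA by a complex around the METTL3 enzyme, mostly within a short sequence motif, and is read by YTH-domain proteins that steer splicing, translation and decay of the transcript. The mark is known for its concentration near stop codons and in the last exon, and within the body of a transcript it is known from long internal exons. In the liver it is known from transcripts of lipid metabolism among others.

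The gene span includes introns, so a middle position in the span is not a middle position in the mRNA. In bins of 0.1 of the span, peak numbers ran from 194 in the bin starting at 0.2 to 490 in the bin starting at 0.7. Below 0.2 lay 613 peaks (5' peaks) and from 0.8 on 4171 (3' peaks). Middle peaks lay a median of 5850 bases from the 3' end of the gene against 1362 bases for 3' peaks, and 315 of them (18.6%) lay within 2000 bases of it. Their genes had a median span of 15130.5 bases, against 32153 for genes with 3' peaks and 17917 for genes with 5' peaks. Spans of up to 5000 bases were held by 251 of the 1262 genes with a middle peak (19.9%) and by 5.30% of genes with a 3' peak.

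**Figure D1:**
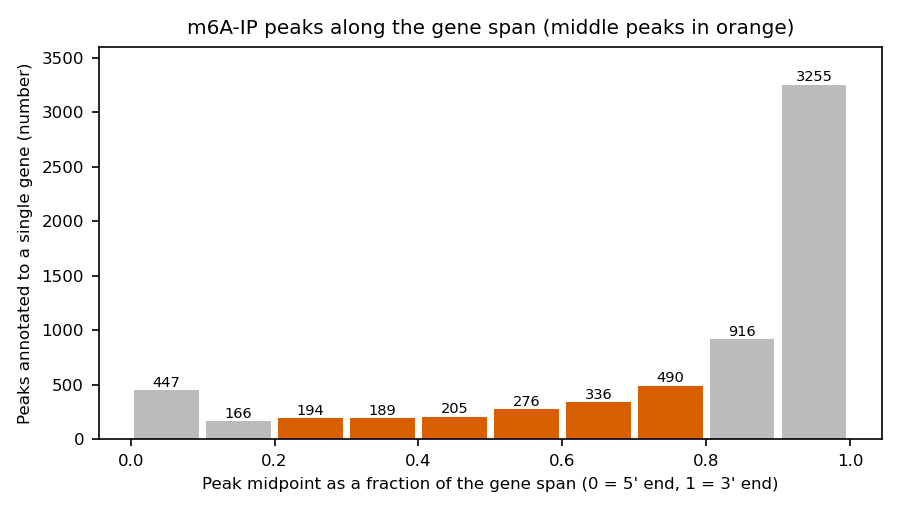
Number of single-gene m6A-IP peaks in each 0.1 of the gene span, from the 5' end (0) to the 3' end (1), with the middle peaks in orange. The middle bins hold 189 to 490 peaks each, fewer than the 3255 of the last bin.

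Of the 1262 genes, 939 had 1 middle peak, 239 had 2 and 84 had 3 or more. Pcdh1, a protocadherin, had the most with 7, followed by Ndst1, an enzyme of heparan sulfate sulfation, and Rnf213, a very large ubiquitin ligase, with 5 each. Counting single-gene peaks alone, 892 genes (70.7%) had only middle peaks, while 322 also had a 3' peak and 65 a 5' peak. Peaks annotated to several genes were not counted here. The median peak width was 175 bases. There were 81 middle peaks (4.79%) wider than 1000 bases, up to 184670 bases in Prr16, and for these the midpoint says little about position. Of the 268 middle peaks of 75 bases or less, 31 had no reads in any library, whereas every one of the 1422 wider middle peaks had reads.

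Some middle peaks lay over the annotated start of a transcript. Among the 1298 middle peaks whose gene symbol has a start window in the RefSeq table of GRCm38.p6 (250 bases before to 50 after a start), 16 overlapped such a window (1.23%), against 28.8% of 5' peaks and 0.121% of 3' peaks. Of these 16, 12 were at most 1000 bases wide, and 10 of the 12 began within 30 bases of an annotated start. The starts of 5 of these 10 peaks are shown as examples, chosen after their values were seen, where the middle of a gene span holds the 5' end of an annotated RNA. Each run holds 10 bases before the start in lower case and the first 20 bases of the RNA in capitals, 5' to 3' on the gene's strand, from RefSeq (GRCm38.p6). Distances from peaks to starts take the peak coordinates to be of that build, which the sources used here do not name. Of the 4417 genes with a single-gene peak that matched that annotation by symbol, 1351 (30.6%) have the same gene start.
Por (chr5:135689135-135689164, plus strand): gcagcctcccGGGCCGTGGTAGCGCCTCAG
Clta (chr4:44012660-44012689, plus strand): cttccaccttCTCCCTCTTCTCGCTCGTCC
Psma6 (chr12:55398815-55398844, plus strand): ccggtgctccGGAAGCAGTAGCCATAACTT
Fth1 (chr19:9982636-9982665, plus strand): ctgattggccAGCGCTCGCCTGACGCAGGA
Txndc11 (chr16:11087911-11087940, minus strand): cctgaacatcTACCTTTTGGATTCCAATTT

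Relative to these starts the peak began 5 bases downstream in Por, the electron donor of microsomal cytochromes, and 29 bases downstream in Fth1, the ferritin heavy chain. It began 7 bases upstream in Clta, a clathrin light chain, 6 bases upstream in Psma6, a proteasome subunit, and 22 bases upstream in Txndc11, a thioredoxin-domain protein of the endoplasmic reticulum. The m6A core motif GGAC, searched on both strands from the start to 50 bases after it, was on the sense strand in 2 of the 13 windows under these 12 peaks (15.4%), against 18.9% of all 32851 windows, and on the antisense strand in 30.8% against 17.4%. The Fth1 peak had 46.8, 26.2 and 30.5 CPM in BDL and 39.8, 31.3 and 31.5 in control, so the groups overlapped. CPM are reads scaled by TMM to the size of each library in peaks. The Txndc11 peak had 91.9, 70.6 and 66.4 CPM in BDL and 160.6, 190.9 and 173.9 in control, with every BDL library below every control library. This is a log2 change of -1.20 (SE 0.21, edgeR adjusted p = 0.0158).

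The libraries held 20540863, 35691860 and 26690519 reads in peaks in BDL and 15254737, 19251404 and 19378332 in control, and middle peaks took 4291054 to 9540355 of them. Correlations between libraries, over the log2 levels of tested peaks, were 0.852 to 0.869 within BDL and 0.771 to 0.810 within control. Hepatocyte genes such as Alb, Ttr, Apob and Hnf4a had reads in every library. Over all single-gene peaks, 7 of 16 cholangiocyte genes had a peak, and their summed level was 1844 to 2940 CPM in BDL against 464 to 583 in control. The same sum for 8 of 18 macrophage and monocyte genes was 5098 to 6312 against 1518 to 2564. For 6 of 13 endothelial genes it was 465 to 678 against 449 to 604, and for 3 of 12 stellate cell genes it was 431 to 614 against 299 to 420. Few peaks carried the cholangiocyte and macrophage sums. The Cldn4 peak alone had 930, 1225 and 1501 CPM in BDL, and Cd14 and Cd5l made up most of the macrophage sum. By the edgeR threshold given below, 3 of 9 tested cholangiocyte peaks and 6 of 10 tested macrophage peaks were higher, and none was lower. Of all tested peaks 4.62% were higher and 4.55% lower. The cholangiocyte genes Krt7, Krt19 and Epcam had no peak annotated to them alone, nor had any erythroid or pancreatic acinar gene. The part of changed cell numbers in the results below was not tested.

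In BDL against control, middle peaks of Cldn4, Cd14, Ccn2 and Jun were among those that rose, and middle peaks of Nudt7, Ppp1r3c, Paqr9, Cebpa and Hspa5 among those that fell. Of the 1690 middle peaks, 1611 were tested and 79 had too few reads. Of the tested ones 147 (9.12%) passed the threshold, an adjusted p under 0.05 in edgeR's quasi-likelihood test with Benjamini-Hochberg adjustment over all peaks. This share is close to the 9.16% of all 7083 tested peaks, and it lies between 8.16% of 5' and 9.31% of 3' peaks. There were 73 higher peaks, in 69 genes, and 74 lower peaks, in 65 genes. Over all tested peaks 4.62% were higher and 4.55% lower. The BDL and control libraries did not overlap for 592 middle peaks (36.7%), against 37.4% of all tested peaks. The median log2 change was 0.09 for middle peaks and 0.05 for all.

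**Figure D2:**
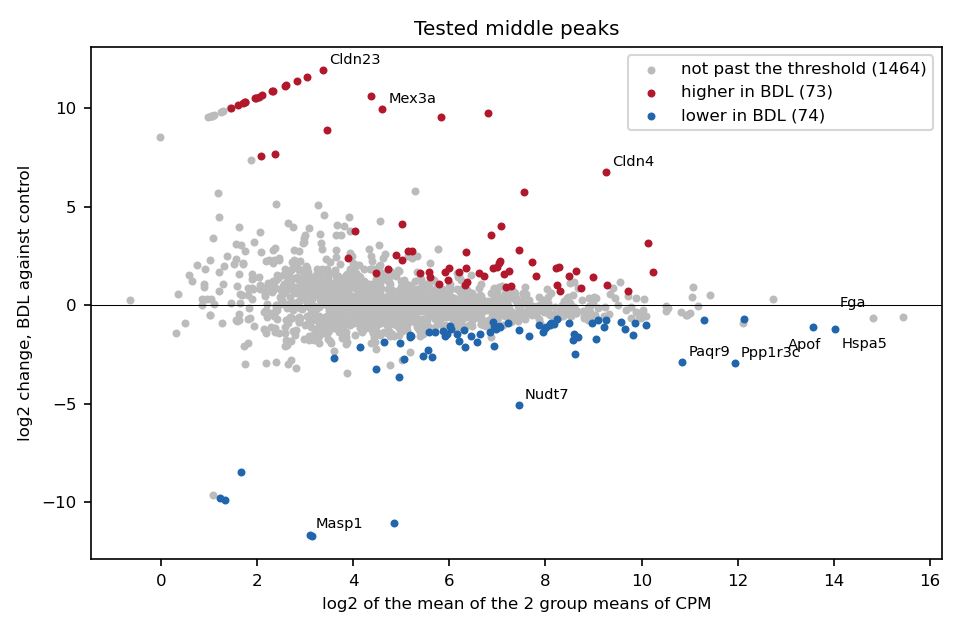
Log2 change between BDL and control (vertical axis) against the log2 mean level in CPM (horizontal axis) for the 1611 tested middle peaks. The 73 higher peaks are red and the 74 lower peaks blue, and most points beyond 8 log2 units either way come from a group with few or no reads.

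Fewer middle peaks passed in each of the 6 fits that left out 1 library. Without BDL replicate 2 there were 19 higher and 19 lower middle peaks, without BDL replicate 3 there were 21 and 24, and without BDL replicate 1 there were 36 and 43. Without control replicate 2 there were 54 higher and 32 lower peaks. Of the 147 calls, 33 held in all 6 fits that left out 1 library, and DESeq2 called all 147 among its 258. Scaling by library totals alone gave 141 higher and 40 lower peaks (77.9% higher, against 49.7% with TMM), as it moved the median log2 change of all peaks from 0.05 to 0.38.

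Calls occurred in every bin of the middle. The bin starting at 0.2 had 9 higher and 8 lower of 185 tested peaks, that at 0.3 had 10 and 4 of 177, and that at 0.4 had 12 and 7 of 199. The bin starting at 0.5 had 10 higher and 9 lower of 263, that at 0.6 had 15 and 19 of 320, and that at 0.7 had 17 and 27 of 467. Over all tested peaks 9.16% passed. By gene span, 12.5% of 320 tested peaks passed in genes of up to 5000 bases (21 higher, 19 lower), 9.38% of 597 in genes up to 20000 bases (27 and 29) and 7.35% of 694 in longer genes (25 and 26). These shares and the counts by bin were not tested against each other.

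All gene lists were chosen with earlier results of these data known, so their counts and medians below stand as descriptions. The cholangiocyte markers Cd24a and Cldn4 had higher middle peaks in BDL. Cd24a, a surface glycoprotein of bile duct cells, had 166, 250 and 345 CPM in BDL and 8.59, 14.5 and 24.1 in control (log2 4.01, SE 0.45). Cldn4, a tight junction claudin, had 930, 1225 and 1501 CPM against 1.38, 15.3 and 17.2. The 3 tested cholangiocyte genes with a middle peak thus held 2 higher peaks and no lower one. Their median log2 change was 4.01, against 0.05 over all tested peaks, of which 4.62% were higher and 4.55% lower. The third, the transcription factor Sox9, had 36.3, 37.9 and 36.3 CPM in BDL and 21.0, 4.46 and 2.82 in control, and with a log2 value of 1.97 (SE 0.75) it missed the threshold (edgeR adjusted p = 0.156). Cldn23, a claudin outside this list and named after its values were seen, had 194, 843 and 1004 reads in BDL and none in control (edgeR adjusted p = 0.0103). With control set at 3 reads a library, the mean BDL level was at least 110-fold higher.

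Macrophage and monocyte genes had 6 tested middle peaks in 5 genes, and 4 peaks of 3 genes were higher, against 4.62% of all tested peaks. Their median log2 change was 3.36, against 0.05. Both middle peaks of Cd14, the lipopolysaccharide co-receptor, were higher. The one at 0.444 had 1515, 2380 and 2168 CPM in BDL and 439, 100.4 and 136 in control (log2 3.17, SE 0.55), and the one at 0.560, only 75 bases wide, had 127, 265 and 251 against 40.1, 1.93 and 13.2 (log2 3.55, SE 0.90). The chemokine receptor Ccr1 had 278, 392 and 439 CPM in its middle peak against 0.437, 3.26 and 16.3 (log2 5.77, SE 1.03). Gpnmb, a glycoprotein of activated macrophages, had 204, 255 and 213 against 0.291, 0.121 and 0.338. The other 2 peaks of the list did not pass. Cd5l, a secreted scavenger protein, had 2725, 2756 and 2906 CPM against 1113, 1202 and 2134, log2 0.91 (SE 0.25), which missed the threshold (edgeR adjusted p = 0.0587) and is the additional peak among the 5 of this list that DESeq2 and library totals alone called. The lectin Clec4f had 153, 97.9 and 165 against 199, 179.7 and 250.5 (log2 -0.60, SE 0.25, edgeR adjusted p = 0.192). The Ccr1 peak and both Cd14 peaks lost their calls when BDL replicate 2 or 3 was left out, the Ccr1 peak also with control replicate 2 left out, and the narrow Cd14 peak also with BDL replicate 1 or control replicate 3 left out, with edgeR adjusted p up to 0.149. Without BDL replicate 2 or without BDL replicate 3, 1 peak of this list passed.

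Few matrix genes had a middle peak, 4 of the 47 genes on both matrix lists. Ccn2, connective tissue growth factor, had 211, 387 and 321 CPM in BDL and 50.5, 32.9 and 47.7 in control, groups far apart (log2 2.81, SE 0.29, edgeR adjusted p = 0.00205). Mmp14, a membrane metalloproteinase that cleaves collagen, had 59.3, 76.4 and 82.5 in a peak of 75 bases, against 28.6, 17.7 and 20.9 (log2 1.70, SE 0.31). Ctsk, a collagen-degrading cathepsin, had 164, 1079 and 466 reads in a peak of 50 bases and none in control, at least 87.1-fold higher in the mean. The fit without peaks of 75 bases or less thus tested neither of these peaks. The other middle peak of Mmp14 had 37, 0 and 0 reads in BDL and none in control. That of Ctsk had no reads in any library, and both were too low to be tested. The fibulin Fbln2 had 11.04, 14.2 and 26.0 CPM against 6.70, 4.34 and 5.24, and did not pass (log2 1.65, SE 0.67, edgeR adjusted p = 0.179). The calls of Mmp14 and Ctsk were lost when BDL replicate 2 or 3 was left out, and that of Mmp14 also with control replicate 2 left out, with edgeR adjusted p up to 0.105.

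A list of 20 genes known as genes without introns had 20 tested middle peaks in 11 genes. The exons within their annotated spans were not checked. Of the 20 peaks 9, in 7 genes, were higher, and 2, both of Cebpa, were lower. The median log2 change was 1.46, against 0.05 over all tested peaks, of which 4.62% were higher and 4.55% lower. The list was put together with earlier results of these data known and shares Jun, Junb, Ier2 and Ier5 with the immediate early list, Cebpa and Cebpd with the hepatocyte factors and Cldn4 with the cholangiocyte list, so its count stands as a description. It holds a choice of genes without introns, and its balance of higher and lower peaks may not hold for others. Thbd, thrombomodulin, a surface anticoagulant, had 365, 474 and 563 CPM in its peak at 0.433 in BDL and 132, 100.4 and 144 in control (log2 1.90, SE 0.23, edgeR adjusted p = 0.00384). Rhob, a small GTPase, had 306, 355 and 320.2 CPM in its peak at 0.271 against 116, 94.9 and 142 (log2 1.48, SE 0.20). Sox4, a transcription factor, had 21.5, 43.0 and 27.4 CPM at 0.484 against 2.04, 1.63 and 3.04 (log2 3.77, SE 0.58). In all 3 the groups were apart, whereas Cldn5, an endothelial claudin, had 59.4, 42.9 and 21.4 against 39.1, 52.2 and 28.5, overlapping. Without BDL replicate 2, 5 peaks of this list were higher and 2 lower.

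Of the 9 immediate early genes with a tested middle peak, which respond fast to stress and growth signals, 2 had a higher peak and none a lower one. The median log2 change over their 11 peaks was 1.07, against 0.05 over all tested peaks, of which 4.62% were higher and 4.55% lower. The factor Jun had 459, 492 and 624 CPM in BDL and 237, 176 and 157 in control (log2 1.47, SE 0.21, edgeR adjusted p = 0.00742). Ier5 had 176, 206 and 188 CPM against 91.3, 87.4 and 120.2 (log2 0.93, SE 0.20), and lost its call with any BDL library, or with control replicate 1 or 2, left out (edgeR adjusted p up to 0.116). Klf2, a shear-responsive factor, had 728, 706 and 885 against 449, 552 and 563, non-overlapping (log2 0.57, SE 0.17), and missed the threshold (edgeR adjusted p = 0.0711). DESeq2 called 4 peaks of this list higher.

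Other high changes were found in genes outside the lists. Scara3, a scavenger receptor of the oxidative stress response, had 41.8, 54.5 and 86.6 CPM in BDL and 4.66, 4.94 and 0.958 in control (log2 4.12, SE 0.68). The lactate exporter Slc16a3 had 41.2, 83.8 and 58.0 against 5.53, 13.1 and 8.51 (log2 2.75, SE 0.47). B3gnt8, a glycosyltransferase that extends N-glycans, had 57.0, 67.5 and 70.7 against 5.24, 7.72 and 15.7 (log2 2.77, SE 0.47). Nudt18, a hydrolase of oxidised nucleotides, varied most in control, with 148, 141 and 138 CPM in BDL against 4.37, 26.1 and 34.8 (log2 2.71, SE 0.64). All 4 calls were lost with BDL replicate 2 or 3 left out, and that of Nudt18 also with BDL replicate 1 or control replicate 2 left out, with edgeR adjusted p up to 0.119.

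**Figure D3:**
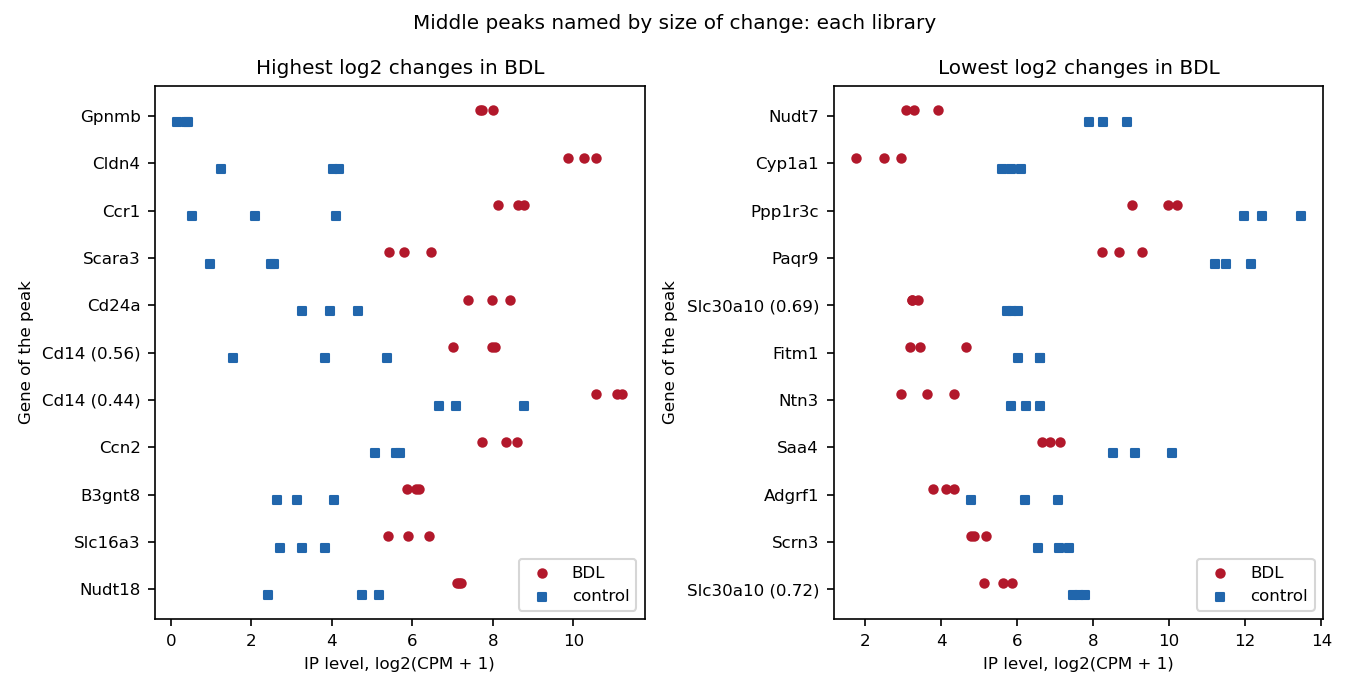
IP level of each library, as log2(CPM + 1), for the named middle peaks with the highest (left) and the lowest (right) log2 changes among called peaks above the median level (red circles BDL, blue squares control). In each row the 3 BDL libraries lie on 1 side of the 3 control libraries, and a number after a gene gives the position of the peak where a gene has 2.

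Nudt7, Ppp1r3c and Paqr9 were among the middle peaks that fell most. Nudt7, a peroxisomal hydrolase of coenzyme A (chromosome 8, 114148157 to 114148331, position 0.693), had 8.84, 7.38 and 14.2 CPM in BDL and 306, 471 and 237 in control, a log2 change of -5.06 (SE 0.39, edgeR adjusted p = 6.43e-04). Its 3 3' peaks were also lower, with log2 changes of -4.51, -4.94 and -11.59. The last, 75 bases wide, had 0, 0 and 2 reads in BDL. It differed from the other peaks of Nudt7 (edgeR's diffSpliceDGE, adjusted p = 0.0191). A 5' peak of Nudt7 gave -5.79 (SE 1.82) and did not pass (edgeR adjusted p = 0.0901). Ppp1r3c, which targets a phosphatase to glycogen, had 516, 1004 and 1175 CPM in BDL and 5513, 11305 and 4021 in control (log2 -2.95, SE 0.45). Paqr9, a membrane protein of the progestin and adiponectin receptor family, had 625, 407 and 299 against 2362, 4542 and 2864 (log2 -2.88, SE 0.35). Both were among the 9 middle peaks with the highest control level, and in both every BDL library was below every control library. The Ppp1r3c peak did not pass without BDL replicate 2 (edgeR adjusted p = 0.0553).

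Cyp1a1, a cytochrome P450 of drug and toxin oxidation, had 4.67, 6.72 and 2.39 CPM in BDL and 55.8, 67.9 and 47.9 in control (log2 -3.64, SE 0.49, edgeR adjusted p = 0.00575), in a peak of 75 bases. Cyp7a1, which starts bile acid synthesis from cholesterol, had 267, 250.4 and 141 CPM against 152, 14.9 and 279, overlapping groups (log2 0.56, SE 0.80, edgeR adjusted p = 0.722). Fitm1, which helps form lipid droplets, had 24.2, 9.89 and 8.10 CPM against 96.5, 96.3 and 64.5 (log2 -2.61, SE 0.48). Insig1, which holds back sterol synthesis, had 155, 135 and 179.8 against 278, 373 and 407 (log2 -1.17, SE 0.21). Fitm1 lost its call with BDL replicate 2 or 3 or control replicate 2 left out, and Insig1 with BDL replicate 1 or 2 or control replicate 2 left out (edgeR adjusted p up to 0.0820).

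The remaining large decreases were in genes of several functions. The netrin Ntn3 had 19.3, 6.70 and 11.4 CPM in BDL and 56.2, 74.7 and 95.4 in control (log2 -2.60, SE 0.46). Adgrf1, an adhesion G protein-coupled receptor, had 16.6, 12.8 and 19.3 against 73.0, 133 and 26.8 (log2 -2.26, SE 0.55). The control libraries of Adgrf1 were far apart, and its call held in 1 of the 6 fits with a library left out, that without control replicate 3 (edgeR adjusted p up to 0.154 in the others). Ntn3 did not pass without BDL replicate 2 or 3 (edgeR adjusted p up to 0.0813).

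Genes of proteins secreted by hepatocytes had 14 tested middle peaks in 8 genes. Of these peaks 4, in 3 genes, were lower and none higher, against 4.55% lower and 4.62% higher over all tested peaks. Their median log2 change was -0.57, against 0.05. With library totals alone 3 were lower and 1 higher, without BDL replicate 3 the count was 1 lower, and without BDL replicate 2 or control replicate 2 it was 2 lower. The 2 middle peaks of Fga, the fibrinogen alpha chain, had the highest levels of all middle peaks. The one at 0.696 had 38121, 37415 and 31783 CPM in BDL and 64864, 51945 and 43484 in control, which did not overlap, and it missed the threshold (log2 -0.58, SE 0.18, edgeR adjusted p = 0.0901). The one at 0.746 gave -0.64 (SE 0.19, edgeR adjusted p = 0.0761). Saa4, a constitutive serum amyloid A, had 100.2, 140.2 and 117 CPM against 365, 1080 and 546 (log2 -2.48, SE 0.39). The Saa4 peak did not pass without BDL replicate 3 (edgeR adjusted p = 0.0615). Apof, an apolipoprotein that inhibits lipid transfer, was outside this list and had 8392, 8151 and 6964 against 13082, 18781 and 17859 (log2 -1.08, SE 0.18), a call lost without BDL replicate 2 or 3 (edgeR adjusted p up to 0.0669).

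Endoplasmic reticulum stress genes had 4 tested middle peaks, of which 2 were lower, against 4.55% of all tested peaks. Their median log2 change was -0.96, against 0.05. Hspa5, the main chaperone of the compartment, had 11416, 9839 and 8940 CPM in BDL and 26618, 19851 and 24215 in control (log2 -1.23, SE 0.17, edgeR adjusted p = 0.00624). Dnajb9, a co-chaperone, had 229, 180.4 and 117 against 641, 485 and 648 (log2 -1.75, SE 0.26). Creb3l3, a membrane-bound factor of the liver, had 41.0, 27.8 and 32.6 against 60.5, 49.9 and 54.4, non-overlapping and not past the threshold (log2 -0.70, SE 0.29, edgeR adjusted p = 0.188). Without BDL replicate 2 neither Hspa5 nor Dnajb9 passed, with edgeR adjusted p of 0.0545 and 0.0564. Other peaks with high control levels went both ways. The peak of 2610001J05Rik, outside the rule for named genes and named after its values were seen, had 7001, 7960 and 7931 CPM in BDL and 5652, 6823 and 5821 in control, apart but not past the threshold (log2 0.32, SE 0.14, edgeR adjusted p = 0.219). The linker histone H1f2 had 3575, 3258 and 3288 CPM against 4527, 6012 and 6174 (log2 -0.72, SE 0.16), a call lost without any BDL library or without control replicate 2 or 3 (edgeR adjusted p up to 0.125), and the tubulin Tuba4a had 3317, 3227 and 2753 against 3943, 7498 and 5794 and did not pass (log2 -0.89, SE 0.23, edgeR adjusted p = 0.0514).

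Hepatocyte transcription factors differed in direction. Both middle peaks of Cebpa, a factor of hepatocyte identity, were lower, that at 0.436 with 490, 536 and 395 CPM in BDL and 1256, 1477 and 1299 in control (log2 -1.50, SE 0.17, edgeR adjusted p = 0.00278). The peak of Cebpd at 0.300, an inflammation-induced relative, was higher, with 727, 763 and 744 against 272, 199.7 and 352 (log2 1.44, SE 0.22). The Cebpd call was lost without BDL replicate 2 (edgeR adjusted p = 0.0509). Onecut2, a factor of liver and bile duct development, had 24.4, 17.8 and 12.7 against 23.2, 53.1 and 29.97, overlapping (log2 -0.95, SE 0.46, edgeR adjusted p = 0.264).

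In 12 genes at least 2 middle peaks passed, and in each gene they went the same way, higher in 4 and lower in 8. They are named here because they complete this count. The other higher gene beside Cd14, Thbd and Sox4 was Ddit4, an inhibitor of mTORC1 signalling, with 464, 226 and 356 CPM in BDL at 0.509 against 59.2, 60.6 and 107 (log2 2.2, SE 0.34). The lower ones beside Cebpa and Apob, the core protein of lipoproteins, included Slc30a10, a manganese exporter, with 3 lower peaks of log2 -1.61, -2.72 and -2.09, and Scrn3, a secernin, with -2.12 and -3.25. Clp1, an RNA kinase of tRNA splicing, had 90.2, 88.8 and 78.8 CPM at 0.284 against 217, 130.3 and 180.6 (log2 -1.03, SE 0.23), and -0.77 at its other peak. Tardbp, an RNA-binding protein of splicing, gave -0.91 and -0.90. The lipid droplet gene Fitm2 gave -1.57 and -1.36, both close to the threshold (edgeR adjusted p = 0.0469 and 0.0451). Ppp1r15b, which guides dephosphorylation of a translation initiation factor, gave -0.74 and -1.10. As stated above, only 33 of the 147 middle calls held in all 6 fits that left out 1 library. Among all 294 genes with 2 or more tested middle peaks, 193 had all of them of 1 sign.

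**Figure D4:**
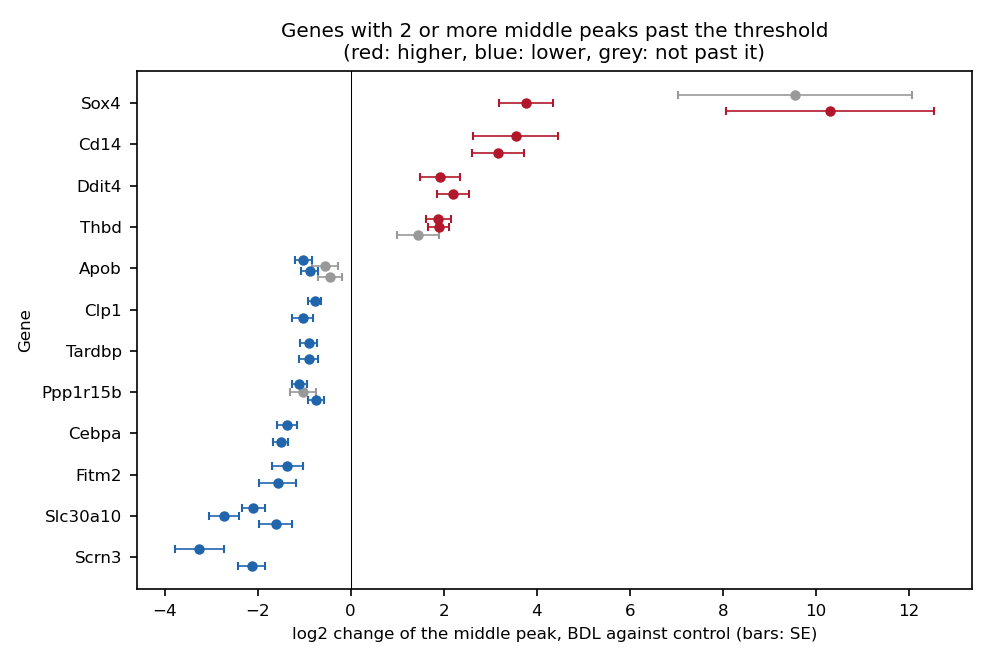
Log2 change with its SE for every tested middle peak of the 12 genes with 2 or more called middle peaks (red higher, blue lower, grey not past the threshold). In each gene the called peaks lie on the same side of 0, and the 2 Sox4 peaks near 10 have no reads in control.

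Genes known for a long internal exon had 16 tested middle peaks in 10 genes. There were 2 lower, both of Apob, and none higher, against 4.55% lower and 4.62% higher over all tested peaks. The median log2 change of the 16 was 0.23, against 0.05. With library totals alone 1 was lower and 3 were higher, and without BDL replicate 2 or 3 or control replicate 2 none passed. The Apob peak at 0.778 had 192, 179 and 171 CPM in BDL and 385, 415 and 292 in control (log2 -1.01, SE 0.18), a call lost without BDL replicate 2 or 3 or control replicate 2 (edgeR adjusted p up to 0.0846). Ahnak, a giant scaffold protein, had 48.3, 97.6 and 51.5 against 34.4, 29.1 and 26.7 at 0.317, apart but not past the threshold (log2 1.13, SE 0.36, edgeR adjusted p = 0.0911). Brca1, a DNA repair protein, had 46.7, 28.0 and 48.4 against 13.0, 8.62 and 21.6 (log2 1.51, SE 0.47, edgeR adjusted p = 0.0867).

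None of the 22 tested middle peaks of 13 chromatin regulators passed edgeR, where 0 had an unadjusted p under 0.05 and DESeq2 called 0, and their median log2 change was -0.04. Bptf, a nucleosome remodelling subunit, had 20.5, 24.2 and 11.9 CPM in BDL and 5.10, 8.68 and 10.3 in control (log2 1.23, SE 0.59, edgeR adjusted p = 0.257). The methyltransferase Setd1b had 1.12, 1.41 and 9.07 against 10.1, 16.5 and 12.6 (log2 -1.76, SE 1.06) and the remodeller Chd8 had 5.48, 4.04 and 15.9 against 21.8, 15.6 and 36.0 (log2 -1.53, SE 0.68). None of 10 middle peaks of 6 growth factor signalling genes passed either, though 2 had an unadjusted p under 0.05 and DESeq2 called 2. Spry2, a feedback inhibitor, had 54.9, 55.9 and 70.2 against 23.4, 32.4 and 17.0 (log2 1.31, SE 0.34, edgeR adjusted p = 0.0508). Its relative Spry1, just inside the upper bound, had 255, 301 and 448 against 211, 223 and 133 (log2 0.82, SE 0.28), and the Wnt co-receptor Lrp5 had 70.5, 72.9 and 51.7 against 56.6, 34.2 and 43.9 (log2 0.53, SE 0.30). The endothelial gene Vwf had 26.4, 14.6 and 22.6 against 13.6, 9.65 and 11.2 (log2 0.88, SE 0.48, edgeR adjusted p = 0.319).

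Transcripts of the m6A machinery itself had 11 tested middle peaks in 7 of 20 listed genes. None passed edgeR. An unadjusted p under 0.05 was found for 3, DESeq2 called 2 and library totals alone 1, and the median log2 change was 0.07. That median has no settled sign, as it was -0.23 without peaks wider than 1000 bases, -0.08 with no filter and -0.21 to 0.10 in the fits without 1 library. The nuclear reader Ythdc1, in a peak of 1249 bases, had 73.5, 116 and 84.9 CPM in BDL and 53.4, 50.3 and 48.7 in control (log2 0.85, SE 0.26, edgeR adjusted p = 0.0822), groups that did not overlap. The cytoplasmic reader Ythdf3 had 89.1, 106 and 106 against 162, 129.8 and 162 at 0.623 (log2 -0.59, SE 0.20, edgeR adjusted p = 0.112), also apart. Its far higher middle peak at 0.643 had 1676, 1961 and 1654 against 2214, 2246 and 2565 (log2 -0.41, SE 0.14, edgeR adjusted p = 0.125). Among partners of the writer complex, Wtap had 693, 847 and 699 against 741, 980.9 and 967 (log2 -0.26, SE 0.17), a value that turns to 0.07 with library totals alone. Virma had 66.6, 74.8 and 68.4 against 36.3, 97.6 and 65.3 (log2 0.07, SE 0.36). Zc3h13, in a peak of 1494 bases, had 24.5, 18.0 and 39.9 against 13.3, 10.9 and 34.6 (log2 0.49, SE 0.57). Rbm15 had 20.5, 40.5 and 19.8 against 50.02, 37.1 and 7.44 (log2 -0.23, SE 0.67), which is 0.11 with library totals alone. The RNA-binding protein Hnrnpa2b1 had 9.02, 16.4 and 13.1 against 18.9, 25.9 and 19.8 (log2 -0.74, SE 0.47).

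Many of the extreme changes rested on a group with hardly any reads. Of the called middle peaks 16 had no reads in control and 4 none in BDL, while 5 had 1 to 3 reads in control and 2 had 1 to 3 in BDL. Mex3a, an RNA-binding protein, had 818, 1706 and 2034 reads in BDL and 2, 0 and 0 in control, a ratio of 1177 (95% counting interval 326 to 9720). Bmper, a regulator of bone morphogenetic proteins, had 1036, 1810 and 1009 against 1, 0 and 0, a ratio of 1990 (357 to 78640). Without any control reads were also Cx3cl1, the chemokine fractalkine, at least 53.0-fold higher, and Tlr3, a receptor of double-stranded RNA, at least 52.2-fold. Without any BDL reads, Zfp26, a zinc finger protein, was at least 174-fold lower. These genes, Txndc11, Fitm2, Tardbp, Clp1, Ddit4 and the further genes of complete counts were named after their values were seen. Each bound is for the mean of a group and not for every library. The intervals and bounds cover counting error only, and they hold only where a 0 is a counting 0. At 209 of the 1611 tested middle peaks a library held no reads while another library of its group held 50 or more, in 162 cases among control and 57 among BDL libraries. The Por peak shown above is one, with 15.4, 0 and 0 CPM in control and 7.32, 6.30 and 5.23 in BDL.

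The share of the single-gene peak reads that fell in middle peaks was compared next. It was 30.5%, 30.7% and 29.9% in BDL and 34.7%, 32.9% and 30.8% in control, so that each BDL library was below each control library, control replicate 3 only just above. The difference of the means was -2.42 percentage points (30.4% ± 0.433 against 32.8% ± 1.91, SD, n = 3 each, two-sided exact permutation p = 0.1, the smallest that 3 against 3 can give). A few peaks carried much of these reads. The 2 Fga peaks alone held 22.9% to 26.0% of the middle reads in BDL and 24.9% to 34.5% in control, and without them it was -0.95. Without control replicate 1 it was -1.49. Without the 10 peaks with the most reads over all libraries it was 0.466, with overlapping groups (exact permutation p = 0.4). With all distinct peaks as the denominator it was -0.70, again with overlapping groups (exact permutation p = 0.3). The fall was not particular to middle peaks. The share in 5' peaks was 6.07% in BDL against 9.34% in control, a difference of -3.27. The share in 3' peaks was 63.6% against 57.9%, a difference of 5.69. In both the groups did not overlap (exact permutation p = 0.1 each). The ratio within genes, given next, moved the other way between middle and 3' reads.

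The balance between middle and 3' reads was also compared within genes. For the 300 genes with a middle and a 3' peak and a mean of at least 50 reads in both, the median log2 ratio of middle to 3' reads was -0.28, -0.31 and -0.42 in the BDL libraries and -0.66, -0.70 and -0.98 in the control libraries. All BDL libraries were above all control libraries, with a difference of 0.44 (two-sided exact permutation p = 0.1, the smallest possible, n = 3 each). Middle reads exceeded 3' reads in 119 genes in control and in 134 in BDL. Restricting the genes to the 228 with at least 10 reads of both classes in every library, a choice made after seeing the data, gave -0.58, -0.54 and -0.47 against -0.75, -0.77 and -0.94, a smaller difference of 0.289 (exact permutation p = 0.1). RNA integrity was not measured in the files, and its part in this difference was not tested.

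**Figure D5:**
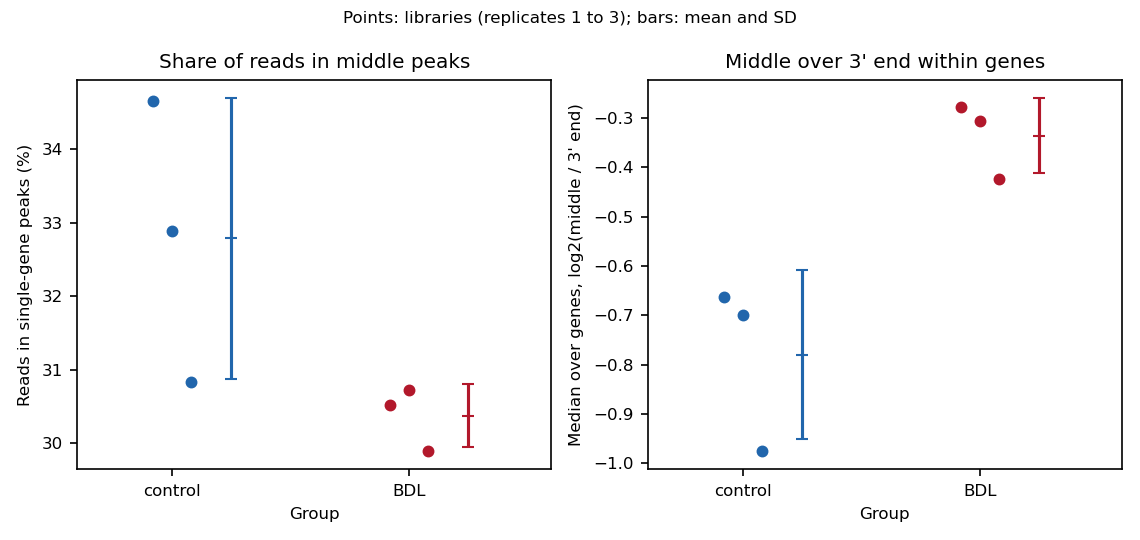
Left, share of single-gene peak reads that fall in middle peaks in each library (percent). Right, median over 300 genes of the log2 ratio of middle to 3' reads. Points are libraries, and bars show mean and SD of 3 libraries. BDL lies below control on the left (30.4% against 32.8%) and above control on the right, and neither axis includes 0.

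Single peaks were also tested against the other peaks of their gene. Of 3122 peaks in genes with at least 2 tested peaks, 7 (0.224%) differed from the other peaks of their gene (edgeR's diffSpliceDGE, Benjamini-Hochberg), and 1 of the 7 was among the 938 middle peaks tested. It lies in Masp1, a serine protease of the lectin complement pathway (chromosome 16, 23479666 to 23479840, position 0.575). It had no reads in BDL and 155, 254 and 439 in control, at least 167-fold lower, while the other middle peak, at 0.713, had 107, 118 and 164 CPM in BDL and 116, 109 and 118 in control (log2 0.18, SE 0.22). The adjusted p of the difference was 0.00821. Without BDL replicate 2 no middle peak passed this test, and without control replicate 1, 2 or 3 the counts were 3, 4 and 2.

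In 302 genes a middle and a 3' peak were both tested. A higher middle peak came with a higher 3' peak in 5 genes and with none called in 12, a lower one with a lower one in 4 and with none called in 6, and in no gene were the calls opposed. Without a called middle peak, 8 genes had a higher 3' peak, 11 a lower one and 256 none called. The 27 genes with a called middle peak had a 3' peak of the same sign in 23 (85.2%), taking the one with the smallest p, against 163 of the 275 other genes (59.3%). Peaks of a gene share libraries and scaling. Called peaks were also selected for a clear change, so these shares do not compare like with like, and they were not tested. The exceptions were Casc3 (1.66 against -0.52), Gpat4 (0.75 against -0.96), Tor1aip2 (-1.02 against 0.87) and Zfp157 (10.16 against -0.25), none of which passed the test within the gene (Zfp157 with adjusted p = 0.0506). Casc3's middle peak is wider than 1000 bases and that of Zfp157 has no reads in control.

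At the bounds, the peaks just inside 0.2 were in Klhl9, with 517, 972 and 613 reads in BDL and 432, 476 and 629 in control, and in Mt1, a metallothionein, with 9576, 11350 and 9501 against 8986, 5818 and 1059. Just below 0.2 lay Mrpl10, a mitochondrial ribosomal protein, with 9, 83 and 45 against 90, 133 and 134, and Mphosph8, a reader of histone methylation, with 89, 225 and 182 against none. Just inside 0.8 lay Spry1, with 5679, 12003 and 13885 reads against 2893, 3704 and 2364, and Naif1, a nuclear apoptosis factor, with 292, 339 and 289 against 59, 128 and 156. Just outside were Fosl2, an AP-1 factor, with 780, 1946 and 1195 against 212, 132 and 137, and Foxj1, a factor of ciliated cells, with 559, 818 and 1428 against 10, 2 and 1.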

How the data were processed

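Liver RNA was fragmented and enriched with an m6A antibody, per the labels' protocols. The submitters' processing notes name bcl2fastq 2.17, fastp, Bowtie2 2.2.8 and HISAT2. No source used here names the peak caller, counter, strand use or genome build. The table that the authors deposited holds, per the file headers, the read count of each IP library in merged peaks and an RPM score, which the authors made by dividing counts by the library's total over distinct peaks, as tested on the file. Lines of peaks annotated to several genes repeat, so 8649 lines became 7460 peaks. Coordinates count from 1. Of 4434 genes with a single-gene peak, 4417 matched a GRCm38.p6 gene table by symbol, and all of these overlapped it, 1351 with the same gene start.

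Counts of all peaks were filtered (filterByExpr), TMM-scaled and tested with edgeR 4.0.16's quasi-likelihood test (robust; R 4.3.3), with diffSpliceDGE within genes and DESeq2 1.42.0 as an alternative. The SE is the log2 change divided by the square root of F. Single values over libraries had exact permutation tests. The test was checked on simulated data. The members and the 23 gene lists were chosen with earlier results of these data known. Named peaks, leaving out predicted genes and those with Rik symbols, were the 12 highest and 12 lowest non-overlapping calls above the median level, the 8 with the highest control level, up to 3 genes per list by p, all tested m6A machinery genes, within-gene calls and the peaks at the bounds. Of these, 2 are not reported here. Alternatives were other scalings, filters, peak widths and bounds, DESeq2, a replicate block and each library left out.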

Additional observations from a re-analysis of the deposited data

How the results depend on the processing

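The 147 middle calls became 258 with DESeq2 (139 higher, 119 lower) and 72 with a replicate block (32 higher, 40 lower). Same-numbered libraries did not deviate together (correlations 0.0295, 0.00993 and 0.00915), so the numbers were not taken as pairs. Library totals alone gave 141 higher and 40 lower. Leaving out 1 library gave 38 to 138 calls, 19 to 80 higher and 19 to 58 lower. The single middle peak that differed from its gene became 2 with library totals alone, 2 without peaks of 75 bases or less, 0 with the replicate block and 0 to 4 with 1 library left out. The share of reads in middle peaks turned to 0.466 without the 10 peaks with the most reads. Among named peaks, Wtap turned to 0.0651 with library totals alone. Rbm15 turned to 0.11 with library totals alone, 0.0819 with the replicate block and 0.275 without control replicate 1, within -0.694 to 0.275 over the fits without 1 library. Virma turned to -0.219 without control replicate 1 (range to 0.461), and Por to -0.295 without control replicate 2 and -0.296 without control replicate 3 (range to 10.32). None of the 4 had passed. Of 38 called named peaks, 16 held in all 6 fits without 1 library, 2 lost the call with library totals alone, 9 with the replicate block and 0 with DESeq2, and none reversed. The causes were not tested. Depth limits the 79 middle peaks with too few reads, which were not tested.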
